A study of Homo sapiens with 6 samples.

Results

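Complex I, NADH:ubiquinone oxidoreductase, is the entry point of electrons from NADH into the mitochondrial respiratory chain. Its matrix arm carries the flavin and iron-sulfur clusters that pass electrons to ubiquinone, and its membrane arm pumps protons. Core subunits carry out catalysis and are conserved from bacteria, accessory subunits surround them, and assembly factors build the enzyme but are not part of the finished complex. Genes for nuclear-encoded subunits and for many assembly factors carry symbols that begin with NDUF, and the remaining core subunits are encoded in mitochondrial DNA.

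The genes described here are the 48 protein-coding genes whose symbol begins with NDUF, out of 61859 genes in the count table. They are 7 core subunits, 30 accessory subunits (10 in the matrix arm and 20 in the membrane arm), 8 assembly factors named NDUFAF, the pair NDUFA4 and NDUFA4L2, and the read-through gene NDUFC2-KCTD14. NDUFA4 was first described as a complex I subunit and is now assigned to cytochrome c oxidase, and NDUFA4L2 is its paralog and a known target of hypoxia-inducible factor. RNA was sequenced from IOMM-Lee, an established line of malignant grade 3 meningioma cells, in 6 libraries. The 3 control libraries came from normoxic cells, and the 3 hypoxia libraries from cells kept at 0.2% oxygen, both with a time label of 48 h. The cells are 1 line and carry no label of any genetic change, and the libraries are labelled biological replicates, with no word on whether they came from separate cultures, so p-values measure the spread between these samples only.

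Total counts per library ranged from 10619864 to 19554178. The hypoxia targets CA9, VEGFA and PDK1 were each higher in all hypoxia libraries than in any normoxia library, at 13.1-fold, 11-fold and 5.67-fold. VIM, expressed in meningioma cells, lay between 2601 and 7222 CPM (counts scaled to a common library total) and was 2.01-fold higher in hypoxia. SSTR2, another meningioma marker, did not exceed 1.15 CPM in any library. Of the other meningioma genes looked at, CRABP2 was 58.1-fold and DSP 3.01-fold higher in hypoxia, and NF2 was 3.0-fold lower. KRT18 did not pass the test described below. Markers of leukocytes (PTPRC, CD68), endothelium (PECAM1, CDH5) and glia (GFAP, SOX10) stayed at or below 3.43 CPM. CPM use library totals scaled by edgeR's trimmed mean of M-values (TMM). A level in TPM, the per-library share of transcripts, is used wherever different genes are compared, because it divides by exon length.

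Of the 48 NDUF genes, 47 had enough counts for the test. NDUFC2-KCTD14 had 0 counts in all 6 libraries, where a floor of 3 counts stands for 0.133 to 0.316 CPM per library. Its exon bases are all (100%) shared on the same strand with NDUFC2 or KCTD14. How such reads were counted is not given in the sources used here, so the 0 counts set no limit on its level. With an adjusted p under 0.05 in edgeR's quasi-likelihood test, 20 of 47 NDUF genes (42.6%) passed, against 62.2% of the 16411 genes tested. In hypoxia 6 rose, against 31.2% of all genes, and 14 fell, against 31.0% of all genes. The median log2 change of the 47 was -0.12, and that of all genes was 0.01. A change of at least 2-fold was seen in 8 of the called NDUF genes, against 33.9% of all genes tested. The levels of hypoxia and normoxia libraries did not overlap for 20 of the 47, against 67.9% of all genes. Hypoxia was above in 7, against 33.4% of all genes, and below in 13, against 34.4%.

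Counts are given next by class, beside 31.2% higher, 31.0% lower and a median log2 change of 0.01 among all genes tested. Among core subunits 1 of 7 rose and 4 fell, and the median log2 change was -0.45. Among accessory subunits 5 of 30 rose and 6 fell, with a median of 0.05. With library totals alone 2 rose and 12 fell (median -0.26), beside 3421 and 6905 of 16411 genes tested. Without hypoxia replicate 1, 3 rose and 11 fell (median -0.22), beside 4966 and 5110 of 17456 genes tested. Among NDUFAF assembly factors 4 of 8 fell and 0 rose by edgeR's test, with a median of -0.55; at an unadjusted p under 0.05, 1 was higher (NDUFAF7), and DESeq2 and limma-voom each called 0 higher. No test was made between classes.

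**Figure D1:**
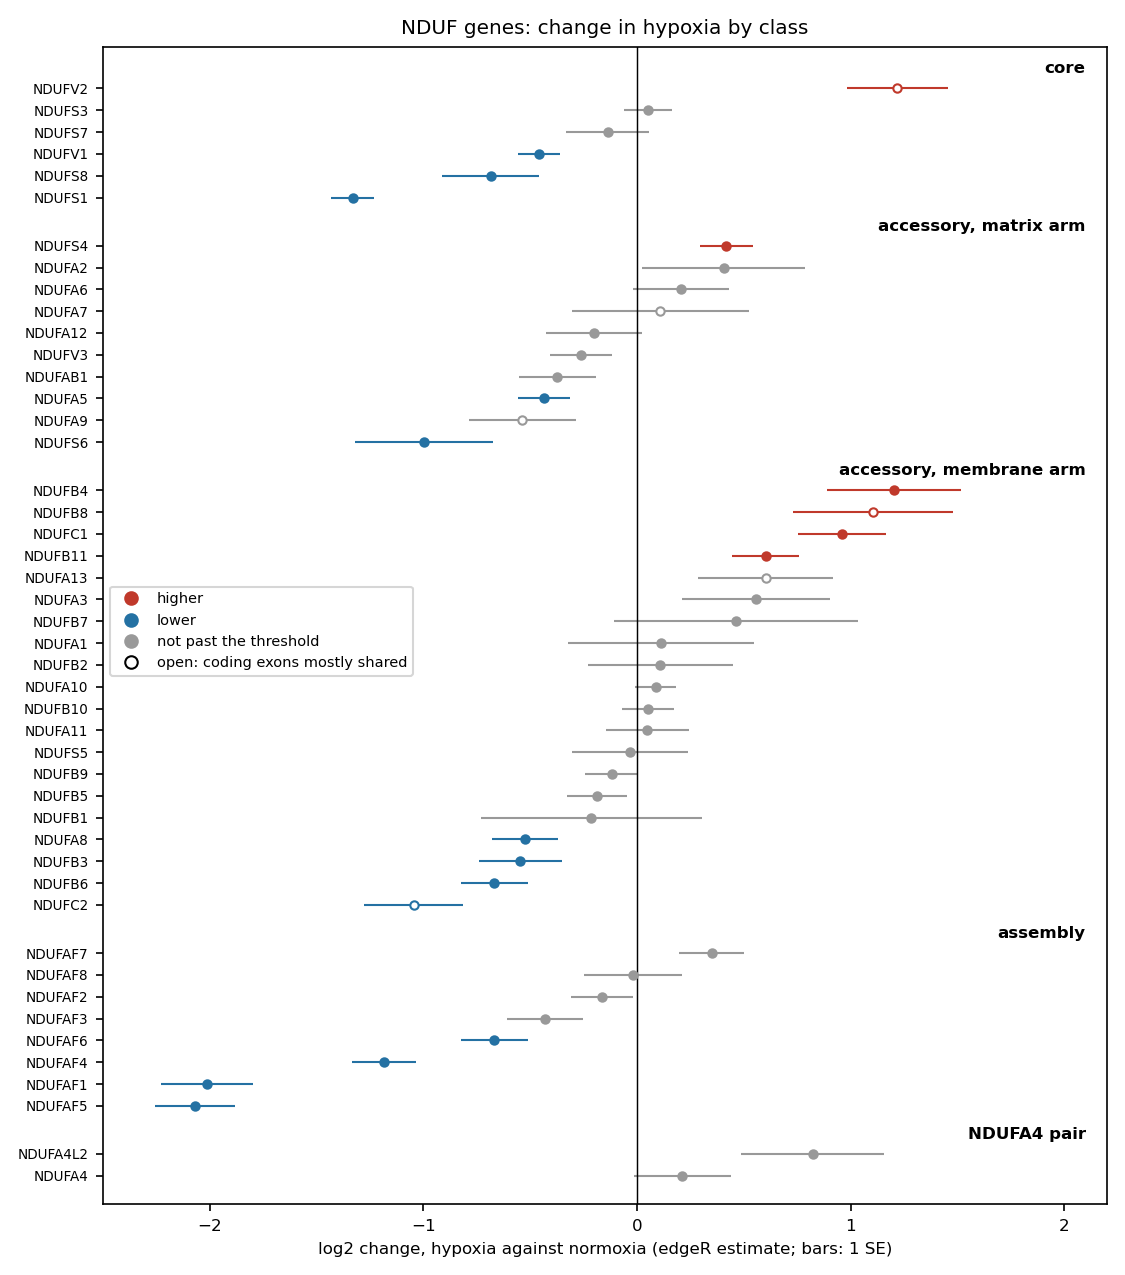
Log2 change in hypoxia against normoxia (x axis) for 46 tested NDUF genes (rows, grouped by class), with bars of 1 standard error. Blue points fell, red points (6) rose, grey points did not pass the threshold, and open points mark the 6 genes of which at least 50% of the coding bases overlap another annotated gene.

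Summed over each class, the core subunits took 425, 431 and 475 CPM in normoxia replicates 1, 2 and 3 and 302, 282 and 303 CPM in the hypoxia replicates. The NDUFAF genes took 199, 197 and 243 CPM in normoxia and 176, 138 and 129 CPM in hypoxia. Both sums were lower in every hypoxia library than in any normoxia library. The mean core sum went from 444 to 296 CPM, and within it NDUFS1 alone went from 146 to 57.7 CPM. Of the 7 core genes 4 fell, 1 rose and 2 did not pass the test. CPM sums do not divide by exon length, so long genes weigh more in them. The membrane-arm accessory subunits took 850, 909 and 1212 CPM in normoxia and 1458, 1027 and 960 CPM in hypoxia, and the matrix-arm accessory subunits 406, 407 and 553 CPM against 531, 383 and 373 CPM. Those sums overlapped between groups. All 37 subunit genes together gave 1889 ± 305 CPM in normoxia and 1873 ± 363 CPM in hypoxia (SD, n = 3 each), so the summed subunit level differed by less than its spread. A lower level can reflect fewer transcripts per cell or a change in all other RNA, which CPM cannot tell apart.

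One library in each group ran high for these genes. Normoxia replicate 3 was the highest normoxia library for 40 of the 47 genes, and hypoxia replicate 1 was the highest hypoxia library for 39, with both true of 35. Over all genes tested the same libraries were highest for 35.4% and 31.5%. Of the 21 NDUF genes with under 2000 bases of exon, each of these libraries was highest for 20 (95.2%), against 41.9% and 46.0% of all tested genes of that length. The median ratio of normoxia replicate 3 to the mean of the other normoxia libraries was 1.26 over the 47 genes, and that of hypoxia replicate 1 was 1.40. Without both libraries, a setting chosen after seeing the data, 7 of 47 rose and 15 fell, beside 4692 and 4579 of 17349 genes tested.

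**Figure D2:**
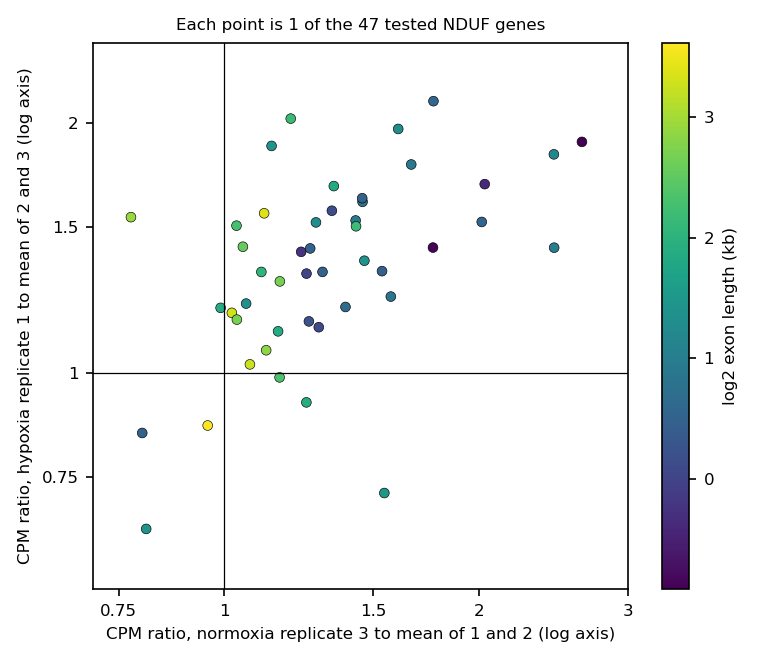
For each of the 47 tested NDUF genes, the CPM in normoxia replicate 3 divided by the mean of normoxia replicates 1 and 2 (x axis, log scale) against the CPM in hypoxia replicate 1 divided by the mean of hypoxia replicates 2 and 3 (y axis, log scale), coloured by exon length. Most points lie in the upper right, where both libraries are above their group, and dark points are genes with short exons.

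Promoter windows from RefSeq (GRCh38.p14, 250 bases before to 50 after each start site) were found for 41 of the 48 genes, and 3 short motifs were searched on both strands. The nuclear respiratory factor 1 core, GCATGCG, stood in windows of 8 of the 41 genes (19.5%), against 4.74% of all genes with a window. That background, also used for the other motifs, is 27305 genes and was not limited to genes tested here. Of these 8, 5 fell (NDUFA5, NDUFA8, NDUFAF4, NDUFAF5 and NDUFS6), 1 rose (NDUFB4) and 2 did not pass the test (NDUFA6 and NDUFS7). Of all 41 genes with a window, 11 fell and 6 rose, against 31.0% and 31.2% of all genes tested. Whether any of the 3 motifs goes with a direction of change was not tested. The ETS core, CCGGAAG, stood in windows of 7 genes (17.1%, against 12.2%), of which 2 fell and 0 rose. The hypoxia response core, ACGTG, stood in windows of 11 genes (26.8%, against 24.9%), of which 1 fell (NDUFAF5), 1 rose (NDUFB8) and 8 did not pass the test, the other being the read-through gene. A match describes letters and does not show that a factor binds there. The windows below are shown because they belong to the genes with an NRF1 core in their first window that changed in hypoxia, and to NDUFS1, the core subunit that fell most; each runs from 200 bases before to 20 after the start site, 5′ to 3′ on the strand of the gene, with matches to any of the motifs in capitals. Matches on opposite strands overlap wherever the core is preceded by a C, as in 4 of them.
NDUFAF5, chr20:13784828-13785047, plus strand: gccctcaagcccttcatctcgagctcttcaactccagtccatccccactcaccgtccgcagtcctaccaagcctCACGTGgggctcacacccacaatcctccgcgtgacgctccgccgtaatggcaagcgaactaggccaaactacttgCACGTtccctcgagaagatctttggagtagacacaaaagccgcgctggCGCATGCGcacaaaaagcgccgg
NDUFAF4, chr6:96897872-96898091, minus strand: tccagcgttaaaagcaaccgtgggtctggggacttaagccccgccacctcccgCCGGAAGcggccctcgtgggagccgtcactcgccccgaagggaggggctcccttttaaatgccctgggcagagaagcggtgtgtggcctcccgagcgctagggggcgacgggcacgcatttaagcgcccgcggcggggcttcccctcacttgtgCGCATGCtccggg
NDUFA8, chr9:122159760-122159979, minus strand: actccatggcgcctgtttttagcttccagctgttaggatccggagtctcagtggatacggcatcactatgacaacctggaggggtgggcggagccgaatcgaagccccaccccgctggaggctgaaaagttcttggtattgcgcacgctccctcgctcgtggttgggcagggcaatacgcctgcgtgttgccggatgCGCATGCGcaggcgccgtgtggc
NDUFS6, chr5:1801207-1801426, plus strand: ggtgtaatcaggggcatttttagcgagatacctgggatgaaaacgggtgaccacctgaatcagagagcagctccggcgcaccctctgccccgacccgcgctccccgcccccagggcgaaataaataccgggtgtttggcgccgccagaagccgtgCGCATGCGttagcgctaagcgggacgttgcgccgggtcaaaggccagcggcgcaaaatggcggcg
NDUFB4, chr3:120596136-120596355, plus strand: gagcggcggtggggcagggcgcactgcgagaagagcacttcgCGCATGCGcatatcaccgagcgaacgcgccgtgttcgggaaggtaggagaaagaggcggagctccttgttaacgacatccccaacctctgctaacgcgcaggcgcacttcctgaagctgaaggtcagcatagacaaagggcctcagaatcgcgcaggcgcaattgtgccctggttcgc
NDUFS1, chr2:206159425-206159644, minus strand: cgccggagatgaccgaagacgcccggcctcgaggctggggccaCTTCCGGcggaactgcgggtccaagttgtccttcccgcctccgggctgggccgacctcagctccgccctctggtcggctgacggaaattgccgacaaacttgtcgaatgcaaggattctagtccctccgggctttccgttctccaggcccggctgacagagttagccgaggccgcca
In NDUFAF5 and NDUFA8 the NRF1 core began 3 bases before the start site, in NDUFS6 45 bases before and in NDUFB4 158 bases before, and in NDUFAF4 it began 7 bases after it. The NDUFAF5 window also held ACGTG matches beginning 126, 125 and 51 bases before the start site, the first and second on opposite strands of the same letters. The NDUFS1 window held an ETS core 157 bases before the start site, and the NDUFAF4 window one 147 bases before.

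The core subunits were led by NDUFS1, the largest iron-sulfur subunit of the matrix arm (ENSG00000023228, GRCh38 chromosome 2, 206114817 to 206159603, minus strand). Its level was 145, 150 and 141 CPM in normoxia and 52.3, 56.8 and 64.1 CPM in hypoxia. The groups lay far apart relative to their spread, and the gene fell 2.52-fold (log2 change -1.33 ± 0.10 SE, adjusted p = 1.4e-06). NDUFS8, which holds a pair of iron-sulfur clusters (ENSG00000110717, chromosome 11, 68030617 to 68036644, plus strand), had 48.7, 40.2 and 63.6 CPM in normoxia and 40.7, 22.6 and 31.5 CPM in hypoxia. The highest hypoxia library of NDUFS8 lay just above the lowest normoxia library, and the fall was 1.61-fold (log2 change -0.69 ± 0.23 SE, adjusted p = 0.026), which was no longer called without normoxia replicate 3, hypoxia replicate 2 or hypoxia replicate 3.

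NDUFV1, the subunit that binds NADH and the flavin (ENSG00000167792, chromosome 11, 67605653 to 67612554, plus strand), had 98.1, 99.8 and 115 CPM in normoxia and 75.3, 76.8 and 75.5 CPM in hypoxia. The hypoxia libraries were nearly equal and all below normoxia, a fall with log2 change -0.46 ± 0.10 SE (adjusted p = 0.0018). NDUFS3 and NDUFS7, core subunits of the matrix arm, did not pass the test. For NDUFS3 the log2 change was 0.05 with a nominal 95% interval of -0.17 to 0.27. For NDUFS7 it was -0.14 with an interval of -0.52 to 0.24. Nominal intervals here and below use a normal quantile times the standard error, which is too narrow with so few libraries.

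NDUFV2, the core subunit that holds an iron-sulfur cluster beside NDUFV1 (ENSG00000178127, chromosome 18, 9102630 to 9134345, plus strand), was the core gene that rose. It had 5.10, 4.72 and 3.97 CPM in normoxia and 7.91, 14.2 and 10.2 CPM in hypoxia. Every hypoxia library was above every normoxia library, and the rise was 2.33-fold (log2 change 1.22 ± 0.24 SE, adjusted p = 0.0010). The value rests on 643 counts in all, and 84.7% of the coding bases of NDUFV2 overlap an exon of AP005263.1 on the same strand, which had 0 counts. With 0 counts for AP005263.1, reads in the shared bases were counted for NDUFV2 alone or left out. If left out, the value rests on the unshared bases. Which was done is not given in the sources used here, and its part in the low level and in the rise was not tested.

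Of the 10 accessory subunits of the matrix arm, 1 rose (10%, against 31.2% of all genes tested) and 2 fell (20%, against 31.0%). The other 7 did not pass the test, and the median log2 change was -0.23. NDUFS4, a small subunit needed for a stable and active enzyme (ENSG00000164258, chromosome 5, 53560633 to 53683340, plus strand), had 75, 70.7 and 91.7 CPM in normoxia and 116, 92.9 and 108 CPM in hypoxia. The groups touched without overlapping, the lowest hypoxia library being just above the highest normoxia library, and the rise was 1.34-fold (log2 change 0.42 ± 0.12 SE, adjusted p = 0.013). The call was lost without normoxia replicate 1, normoxia replicate 2 or hypoxia replicate 1, with scaling by library totals alone (log2 change 0.11) and with no filter on low counts (log2 change 0.29, adjusted p = 0.070).

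NDUFS6, a zinc-binding subunit added late in assembly (ENSG00000145494, chromosome 5, 1801400 to 1816605, plus strand), had 27.5, 28.5 and 56.4 CPM in normoxia and 24.4, 14.6 and 17.5 CPM in hypoxia. Normoxia replicate 3 was about 2 times the other normoxia libraries, which lay only slightly above the highest hypoxia library, and the fall was 2.0-fold (log2 change -0.997 ± 0.32 SE, adjusted p = 0.028), lost without hypoxia replicate 2 or hypoxia replicate 3. Without normoxia replicate 3 the log2 change was -0.59 (adjusted p = 0.032). NDUFA5, a subunit of the matrix arm (ENSG00000128609, chromosome 7, 123536997 to 123558255, minus strand), had 72.5, 75.9 and 75.7 CPM in normoxia and 61.8, 59.0 and 45.5 CPM in hypoxia. All hypoxia libraries were below normoxia, a 1.35-fold fall (log2 change -0.43 ± 0.12 SE, adjusted p = 0.0097) that was no longer called after correction for GC content and exon length.

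The other matrix-arm subunits, NDUFA2, NDUFA6, NDUFA7, NDUFA9, NDUFA12, NDUFAB1 (the mitochondrial acyl carrier protein) and NDUFV3, had log2 changes between -0.54 (NDUFA9) and 0.40 (NDUFA2), with adjusted p from 0.085 to 0.83. NDUFA9 was lower in all hypoxia libraries, with 6.53 ± 0.46 CPM in normoxia and 4.58 ± 1.44 CPM in hypoxia (SD, n = 3 each), and did not pass. For NDUFA2 the nominal 95% interval ran from -0.34 to 1.15, which includes a change of 2-fold.

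Of the 20 accessory subunits of the membrane arm, 4 rose (20%, against 31.2% of all genes tested) and 4 fell (20%, against 31.0%). The other 12 did not pass the test, and the median log2 change was 0.07. NDUFB4 (ENSG00000065518, chromosome 3, 120596309 to 120602500, plus strand) rose most among them, with 66.9, 65.7 and 110 CPM in normoxia and 263, 139 and 156 CPM in hypoxia. Even the lowest hypoxia library was above normoxia replicate 3, and the rise was 2.30-fold (log2 change 1.20 ± 0.31 SE, adjusted p = 0.015), lost, of the settings run, when hypoxia replicate 3 was left out and at a threshold of 0.01. NDUFC1, a small subunit of the membrane arm (ENSG00000109390, chromosome 4, 139266880 to 139302551, minus strand), had 50.1, 56.4 and 76.1 CPM in normoxia and 154, 101 and 101 CPM in hypoxia. Its groups did not overlap, and it rose 1.94-fold (log2 change 0.96 ± 0.21 SE, adjusted p = 0.0034).

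NDUFB8, whose protein is widely used as a marker of assembled complex I (ENSG00000166136, chromosome 10, 100523740 to 100530000, minus strand), had 4.26, 5.02 and 11.4 CPM in normoxia and 18.5, 15 and 11.1 CPM in hypoxia. Normoxia replicate 3 and hypoxia replicate 3 overlapped, and the rise of 2.15-fold (log2 change 1.10 ± 0.38 SE, adjusted p = 0.031) was lost with the replicate number as a block (adjusted p = 0.064), with library totals alone and when any library other than normoxia replicate 3 was left out. Of its coding bases, 85.2% overlap AL133352.1 on the same strand, which had 6 counts in all. Exons of HIF1AN, which rose (log2 change 0.85), overlap 325 exon bases on the opposite strand, and the part of these overlaps in the result was not tested. NDUFB11, encoded on the X chromosome, rose from 48.7 ± 8.71 to 73.9 ± 12.8 CPM (SD, n = 3 each; log2 change 0.60, adjusted p = 0.0066), not called with library totals alone or after correction for GC content and exon length. Exons of RBM10 on the opposite strand cover 44.9% of the exon bases of NDUFB11, and RBM10 itself did not pass the test (log2 change 0.06).

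NDUFC2 (ENSG00000151366, chromosome 11, 78068304 to 78080219, minus strand), which sits beside NDUFC1 in the membrane arm, moved the other way. It had 21.7, 25.2 and 26.7 CPM in normoxia and 17.4, 8.66 and 9.87 CPM in hypoxia. All hypoxia libraries were below normoxia, a 2.06-fold fall (log2 change -1.05 ± 0.23 SE, adjusted p = 0.0029). Of the coding bases of NDUFC2, 76.9% are shared with the read-through gene NDUFC2-KCTD14, which had no counts, and whether such shared bases were counted is not given in the sources used here.

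NDUFB6 (ENSG00000165264, chromosome 9, 32552999 to 32573184, minus strand) had 46.7, 46.3 and 58.7 CPM in normoxia and 39.6, 28.2 and 27.9 CPM in hypoxia. Hypoxia stayed below normoxia in every library, a 1.59-fold fall (log2 change -0.67 ± 0.16 SE, adjusted p = 0.0037). NDUFB3 (ENSG00000119013, chromosome 2, 201071433 to 201085750, plus strand) had 47, 44.0 and 60.9 CPM in normoxia and 45.9, 28.4 and 30.0 CPM in hypoxia. Hypoxia replicate 1 of NDUFB3 fell among the normoxia libraries, and the 1.46-fold fall (log2 change -0.55 ± 0.19 SE, adjusted p = 0.032) was lost without normoxia replicate 3, hypoxia replicate 2 or hypoxia replicate 3. NDUFA8 fell from 54.6 ± 6.87 to 38.0 ± 7.95 CPM (SD, n = 3 each; log2 change -0.52, adjusted p = 0.012), without overlap.

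The 12 membrane-arm subunits that did not pass were NDUFA1, NDUFA3, NDUFA10, NDUFA11, NDUFA13, NDUFB1, NDUFB2, NDUFB5, NDUFB7, NDUFB9, NDUFB10 and NDUFS5, with log2 changes from -0.21 (NDUFB1) to 0.60 (NDUFA13). Among the nominal 95% intervals, those of NDUFA10 and NDUFB10 were narrow, from -0.10 to 0.27 and from -0.19 to 0.29. NDUFB7 and NDUFB1 had wide ones, from -0.66 to 1.58 and from -1.23 to 0.80, and in both normoxia replicate 3 was over 2 times each other normoxia library. NDUFA13, known also as GRIM-19, was higher in every hypoxia library, at 1.70 ± 0.40 CPM in normoxia and 2.60 ± 0.49 CPM in hypoxia (SD, n = 3 each), on 185 counts in all, and did not pass (adjusted p = 0.12).

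**Figure D3:**
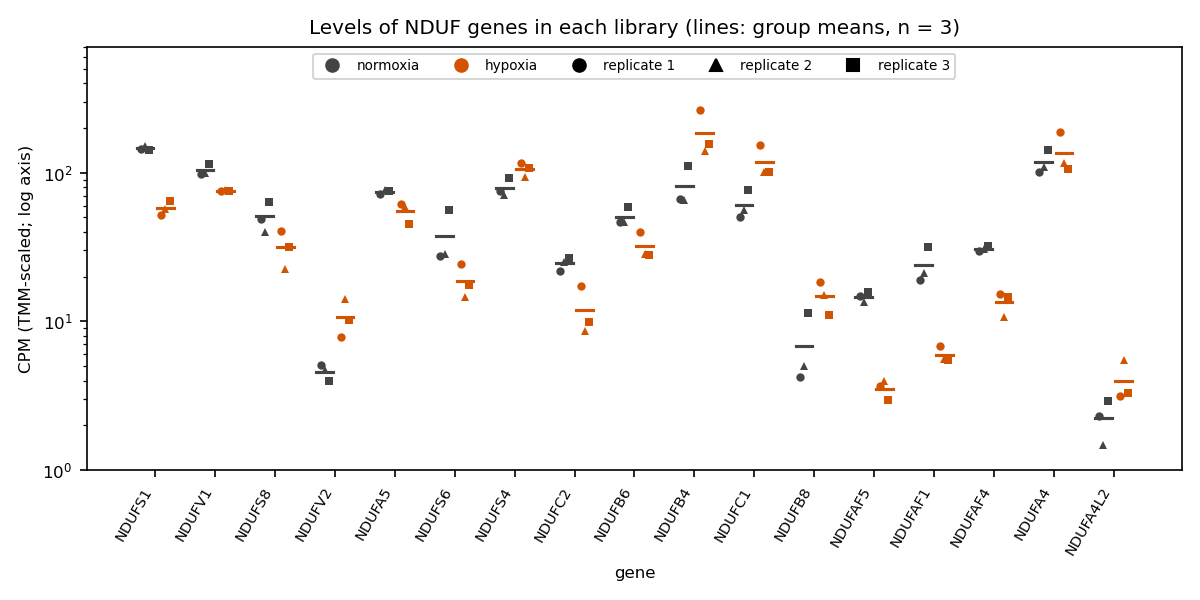
CPM (y axis, log scale) of 17 NDUF genes in each of the 6 libraries, normoxia in grey and hypoxia in orange, with symbols for the replicate and lines at the group means. NDUFS1, NDUFAF5, NDUFAF1 and NDUFAF4 show hypoxia libraries well below normoxia, while NDUFB4, NDUFC1 and NDUFV2 show them above and NDUFA4 shows overlapping groups.

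The 2 largest falls among the 47 genes were in assembly factors. NDUFAF5, a methyltransferase-family protein that hydroxylates NDUFS7 (ENSG00000101247, chromosome 20, 13784950 to 13821582, plus strand), had 14.8, 13.4 and 15.8 CPM in normoxia and 3.69, 3.98 and 2.95 CPM in hypoxia. The groups were tight and far apart, and the fall was 4.2-fold (log2 change -2.07 ± 0.19 SE, adjusted p = 4.9e-06). NDUFAF1, part of the complex that assembles the membrane arm (ENSG00000137806, chromosome 15, 41387349 to 41402519, minus strand), had 19.1, 21.3 and 31.8 CPM in normoxia and 6.85, 5.61 and 5.48 CPM in hypoxia. Its highest hypoxia library was well under its lowest normoxia library, a 4.04-fold fall (log2 change -2.01 ± 0.22 SE, adjusted p = 1.7e-05).

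NDUFAF4, which works with NDUFAF3 on the early matrix-arm module (ENSG00000123545, chromosome 6, 96889313 to 96897881, minus strand), had 29.6, 30.8 and 32.1 CPM in normoxia and 15.3, 10.7 and 14.5 CPM in hypoxia. Every hypoxia library was far below every normoxia library, a 2.28-fold fall (log2 change -1.19 ± 0.15 SE, adjusted p = 5.4e-05). NDUFAF6 fell from 14.7 ± 0.50 to 9.29 ± 1.19 CPM (SD, n = 3 each; log2 change -0.67, adjusted p = 0.0034). None of these 4 genes has coding bases that overlap another annotated gene.

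The other NDUFAF genes did not pass the test. NDUFAF3 had 49.1, 45.5 and 60.7 CPM in normoxia and 49.98, 34.1 and 31.7 CPM in hypoxia (log2 change -0.43, adjusted p = 0.058), and the adjusted p was 0.048 with DESeq2, 0.036 with limma-voom and 0.18 without normoxia replicate 3. NDUFAF7, an arginine methyltransferase, averaged 18.5 ± 0.31 CPM in normoxia and 23.7 ± 4.36 CPM in hypoxia (SD, n = 3 each; log2 change 0.35, adjusted p = 0.067), and was called higher after correction for GC content and exon length or without hypoxia replicate 3. NDUFAF2, a paralog of NDUFA12, and NDUFAF8, a partner of NDUFAF5, had log2 changes of -0.16 and -0.02.

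Complex I assembly factors without an NDUF name gave further counts of this kind. Of 12, 9 fell and 2 rose, against 31.0% and 31.2% of all genes tested, and the median log2 change was -0.96. TIMMDC1, a membrane-arm assembly factor, fell most, with 42.9, 39.3 and 39.8 CPM in normoxia and 10.2, 8.15 and 11.6 CPM in hypoxia (4.04-fold, adjusted p = 1.0e-06). ACAD9 and TMEM126B, which act with NDUFAF1 and ECSIT, fell 1.81-fold and 2.71-fold. ECSIT rose most, from 24.8 ± 3.19 to 31.1 ± 1.63 CPM (SD, n = 3 each; log2 change 0.33, adjusted p = 0.044), and its log2 change was -0.08 after correction for GC content and exon length; DESeq2 did not call it (adjusted p = 0.055), and the call held, of the libraries left out singly, only without normoxia replicate 3. FOXRED1, NUBPL, DMAC1, TMEM186, COA1 and TMEM70 fell, DMAC2 rose (log2 change 0.29) and TMEM126A did not pass the test. With the NDUFAF genes, 13 of 20 assembly factors fell (65%, against 31.0% of all genes tested) and 2 rose (10%, against 31.2%).

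**Figure D4:**
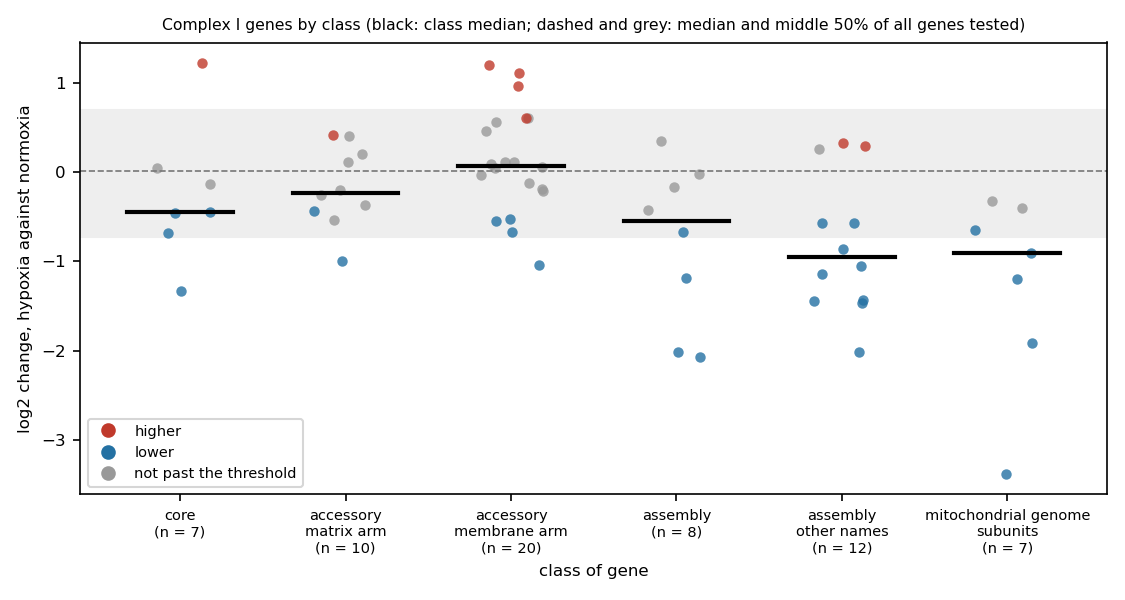
Log2 change in hypoxia against normoxia (y axis) by class (x axis), 1 point per gene, with black lines at class medians and the median and middle 50% of all genes tested as a dashed line and grey band. The medians of the NDUFAF and other assembly factors, -0.55 and -0.96, lie below those of the accessory classes, -0.23 and 0.07.

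The complex I subunits of the mitochondrial genome were also lower in part. Of 7, 5 fell, against 31.0% of all genes tested, and 0 rose by edgeR's test, with 0 higher at an unadjusted p under 0.05 and 0 higher by DESeq2 and by limma-voom. MT-ND3 fell most, with 554, 815 and 1520 CPM in normoxia and 151, 87.0 and 41.5 CPM in hypoxia (log2 change -3.38 ± 0.66 SE, adjusted p = 0.0079). MT-ND1, MT-ND2, MT-ND4L and MT-ND5 fell by log2 changes between -1.91 and -0.65, and MT-ND4 and MT-ND6 did not pass. These genes have near-identical copies in nuclear DNA, so reads may have been split or dropped in counting.

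Of 8 nuclear regulators of respiratory chain genes, 2 rose, against 31.2% of all genes tested, and 5 fell, against 31.0%. NRF1, which binds the core counted above, had 11.6, 10.4 and 10.3 CPM in normoxia and 16.0, 17.3 and 15.6 CPM in hypoxia (log2 change 0.59, adjusted p = 0.0038), not called with library totals alone. YY1 rose 1.48-fold. GABPA, the ETS-family DNA-binding subunit of nuclear respiratory factor 2, fell 1.49-fold and its partner GABPB1 fell 1.95-fold. The coactivator PPARGC1B fell 5.71-fold, from 17.1 ± 1.01 to 2.98 ± 0.26 CPM (SD, n = 3 each), and PPRC1 fell 1.95-fold. PPARGC1A was near the floor throughout, with 0.93, 0.80 and 0.76 CPM in normoxia and 0, 0 and 0.24 CPM in hypoxia (adjusted p = 0.0068), and ESRRA did not pass the test.

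NDUFA4L2 and NDUFA4 were not called. NDUFA4L2 (ENSG00000185633, chromosome 12, 57234903 to 57240715, minus strand) had 2.31, 1.47 and 2.92 CPM in normoxia and 3.16, 5.50 and 3.31 CPM in hypoxia. All hypoxia libraries were above normoxia, by 1.77-fold, on 265 counts in all (log2 change 0.82 ± 0.33 SE, nominal 95% interval 0.17 to 1.48, adjusted p = 0.052). Over the alternatives the adjusted p ran from 0.035 without hypoxia replicate 3 to 0.28 after correction for GC content and exon length, where the log2 change was 0.43. It was 0.044 with DESeq2, 0.049 with limma-voom, 0.097 with the replicate number as a block, 0.20 with library totals alone and 0.23 without hypoxia replicate 2 (log2 change 0.52). NDUFA4 (ENSG00000189043, chromosome 7, 10931951 to 10940256, minus strand) had 102, 109 and 142 CPM in normoxia and 187, 117 and 105 CPM in hypoxia. Its groups overlapped (log2 change 0.21 ± 0.23 SE, nominal 95% interval -0.23 to 0.66, adjusted p = 0.45), and its direction turned without hypoxia replicate 1 (log2 change -0.10).

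Per exon length, levels of NDUF genes in normoxia spanned a wide range. NDUFS5 was highest at 560 ± 159 TPM, then NDUFB10 at 355 ± 28.3 TPM, NDUFS4 at 228 ± 20.1 TPM and NDUFA8 at 219 ± 16.0 TPM (SD, n = 3 each); NDUFS4 and NDUFA8 did not differ beyond their spread. The lowest tested were NDUFA7 at 1.83 ± 0.53 TPM, NDUFA13 at 2.12 ± 0.33 TPM, NDUFA9 at 2.13 ± 0.02 TPM and NDUFA4L2 at 2.69 ± 0.79 TPM. NDUFA7, NDUFA13 and NDUFA9 are among the 6 tested genes with at least 50% of coding bases shared with another annotated gene, which also include NDUFB8, NDUFC2 and NDUFV2. How reads in shared bases were counted is not given, so the TPM of these 6 genes may understate their levels, which was not tested. Among the 34 tested genes with no coding base shared, 4 rose (11.8%, against 31.2% of all genes) and 13 fell (38.2%, against 31.0%). In hypoxia NDUFS5 and NDUFB10 kept ranks 1 and 2, NDUFB4 moved from rank 9 to 3, NDUFC1 from 14 to 6, NDUFAF1 from 25 to 39 and NDUFAF5 from 42 to 46.

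**Figure D5:**
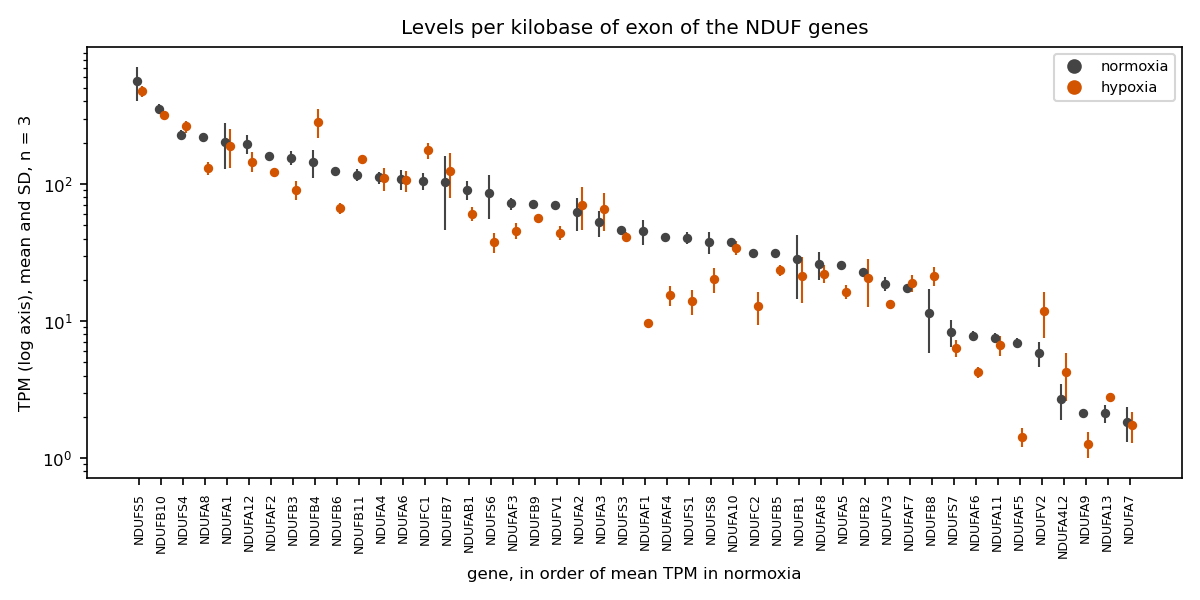
Mean TPM with SD (y axis, log scale, n = 3) of 46 tested NDUF genes in normoxia (grey) and hypoxia (orange), in order of the normoxia mean (x axis). Levels run from 560 TPM for NDUFS5 to 1.83 TPM for NDUFA7, and the orange points of NDUFAF1, NDUFAF4, NDUFS1 and NDUFAF5 stand furthest below the grey ones. TPM carry no TMM scaling, so changes are read from the fitted values.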

How the data were processed

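RNA-seq read counts per Ensembl gene were analysed in 6 IOMM-Lee libraries, 3 per group. Per the submitters' processing notes, the tools named are fastp 0.20.1, HISAT2 2.1.0, featureCounts 2.0.1 and DESeq2 1.37.5, with genome build GRCh38.p13; their settings, the annotation and the strand setting are not stated there, so reads of overlapping and antisense genes cannot be told apart. The table deposited by the authors holds raw counts, and a row with no gene name (0.00243% of counts) was left out. A deposited table of normalized values was not used here because its cells run together.

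Gene symbols, types, exon lengths and overlaps came from GENCODE 29 (GRCh38). Genes were filtered with filterByExpr (minimum count 10, total 15), scaled by TMM and tested with edgeR 4.0.16 (quasi-likelihood F test; Benjamini-Hochberg over 16411 genes; threshold 0.05). Standard errors are the log2 change divided by the square root of F. Nominal intervals are the log2 change plus and minus a normal quantile times this standard error. With few libraries per group they are narrower than the F test implies. For NDUFA9 the interval was -1.03 to -0.04, while the unadjusted p of the F test was 0.057. CPM are TMM-scaled, and TPM were computed from counts and exon length. On simulated counts over 16063 genes for this comparison, 21.1% of 1.5-fold, 69.8% of 2-fold and 93.7% of 4-fold changes were called, with 8 false calls. Only 200 genes were set to change in the simulation, against 62.2% of genes called in the data. These rates therefore do not measure how often such changes were called here. No 2 replicates of a group agreed within sampling noise on average (mean chi-square over genes of 5.75 to 39.3 across pairs of replicates). The biological coefficient of variation was 15.3%.

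The members and gene lists were chosen with earlier results of these data known. Values in every library are given for NDUFA4, NDUFA4L2, NDUFC2 and up to 3 largest rises and 3 largest falls among called genes of each class, and for the largest rise and fall of each other list. Alternatives were other scalings and filters, DESeq2 1.42.0, limma-voom (limma 3.58.1), a replicate block, protein-coding genes alone, a GC and exon length correction, and leaving out libraries. R 4.3.3 and Python 3.11.15 were used. One tested gene enters the counts but is not reported here by name.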

Additional observations from a re-analysis of the deposited data

How the results depend on the processing

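Of the 20 NDUF genes called, 11 were called in the same direction in all 17 other settings run at an adjusted p under 0.05: NDUFA8, NDUFB6, NDUFC2, NDUFAF1, NDUFAF4, NDUFAF5, NDUFAF6, NDUFS1 and NDUFV1 lower, NDUFC1 and NDUFV2 higher. All these settings use the same counts, so none bears on how reads in shared bases were counted. Of the coding bases, 76.9% of NDUFC2 and 84.7% of NDUFV2 overlap another annotated gene. With library totals alone as the scaling, the all-gene median log2 change moved to -0.30, with 3421 of 16411 genes higher and 6905 lower. There were then 3 NDUF genes higher and 22 lower (accessory subunits 2 and 12), and the median NDUF change was -0.43. A threshold of 0.01 left 3 higher and 10 lower (accessory 2 and 3), fewer by construction. The share of all genes at that threshold is not given here. Without a filter on low counts 10 accessory subunits were lower. All genes then had a median log2 change of -0.16, with 5051 of 40297 higher and 6288 lower. After correction for GC content and exon length 1 NDUFAF gene was higher, beside 4830 higher and 5401 lower of 16411 genes tested. The cause of these shifts was not tested. Leaving out 1 library gave 4 to 7 NDUF genes higher and 11 to 20 lower. All genes then gave 4487 to 5283 higher and 4578 to 5630 lower, of 16906 to 17496 tested. Accessory subunits gave 3 to 5 higher and 4 to 11 lower, and 0 to 1 NDUFAF genes were higher. Without hypoxia replicate 1 the NDUF counts were 4 and 20, beside 4966 and 5110 of 17456 genes tested. Without hypoxia replicate 3 they were 6 and 11, beside 5283 and 5630 of 17085. NDUFA4 turned to -0.10 with library totals alone and to -0.096 without hypoxia replicate 1 (0.35 without normoxia replicate 3), and ECSIT to -0.083 after the GC and length correction. The replicate number as a block gave 5 higher and 14 lower, beside 4862 and 4906 of 16411 genes tested. With each group centred on its own mean, same-numbered libraries correlated at -0.11, 0.086 and -0.038. With 3 libraries in each group these values cannot tell whether the numbers pair the samples, and the labels do not say. In simulated counts 21.1% of 1.5-fold changes were called, but only 200 genes were set to change there, against 62.2% called in the data. That share therefore does not measure how often such changes were called here. A gene not called may still have changed. The planned limma fits on the deposited normalized values were not run.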

Other observations

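NDUF loci that are not protein-coding genes were few in counts. The pseudogene NDUFB4P12 had 99 counts over the 6 libraries, against 10925 for NDUFB4, and NDUFA5P11 had 94, against 6090 for NDUFA5.

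Across the 47 tested NDUF genes, the log2 change had a Pearson correlation of -0.26 with log2 exon length and 0.29 with GC content; over the 15998 genes with both properties the values were -0.091 and 0.18. Genes are not independent replicates, and these points share the same libraries. The 14 genes that fell had a median exon length of 3155 bases and the 6 that rose one of 1915 bases.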
